A study of Homo sapiens with 12 samples.

Results

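Cells of the acute myeloid leukemia (AML) line MV4-11 treated with gilteritinib alone were compared with cells treated with mitoxantrone-liposome alone, gene by gene, by RNA-sequencing. The libraries compared were 6 of the 12 of the series, 3 labelled Gilteritinib (25 nM, 24 h) and 3 labelled Mitoxantrone (20 nM, 24 h). The second is called Mito-Lipo here after the name of the drug in the paper. Libraries were paired by the replicate number in their labels. The other 6 libraries were 3 of DMSO and 3 of Com, the combination of 20 nM mitoxantrone-liposome with 20 nM gilteritinib. All 4 conditions were in the same line, given in the labels as Wild-type. The doses of the 2 single drugs were not matched, so the values compare these 2 treatments and not the drugs at equal exposure, and no empty-liposome library was analysed here. MV4-11 is 1 cell line, derived from a monocytic leukemia with a KMT2A rearrangement and the internal tandem duplication of FLT3.

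The 2 drugs act at different points. FLT3 is a receptor tyrosine kinase of blood progenitors, and the internal tandem duplication makes it signal without its ligand through STAT5, the RAS and ERK kinases and PI3K and AKT. Gilteritinib is an inhibitor of the kinases FLT3 and AXL. Mitoxantrone is an anthracenedione that traps topoisomerase II on cut DNA. The breaks that follow are known to activate p53, whose target CDKN1A (p21) inhibits cyclin-dependent kinases and so lowers the E2F and cell cycle genes.

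The files hold FPKM, the fragments of a gene scaled to its length and to the fragments of the library. Library depth, recovered from the size of the step that 1 fragment makes in low values, was about 31720000 to 41330000 fragments. Of the 20 markers of the line, 17 reached 1 FPKM in at least 3 libraries, among them FLT3, HOXA9, MEIS1, CD33 and CSF1R, and HOXA7, HOXA5 and MEF2C were below 1 FPKM in all 12. Of 25 markers of other cell types, 22 were below 1 FPKM in all 12 libraries; the summed FPKM of the 25 was 15.4 to 20.0 in Gilteritinib and 16.2 to 31.6 in Mito-Lipo. PECAM1, an adhesion molecule also found on monocytes, made up most of that sum. The libraries numbered 1 stood apart from those numbered 2 and 3 on the first principal component, which held 41.9% of the variance. Mitochondrially encoded genes took 1.49% of the FPKM sum in Gilteritinib replicate 1 and 3.06% to 4.04% in the other 5 libraries compared. RN7SL1, the RNA of the signal recognition particle, took 10.4% to 12.2% in Gilteritinib and 7.15% to 10.8% in Mito-Lipo, and its part in the values of other genes was not tested.

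Differences are given as Gilteritinib minus Mito-Lipo on the log2(FPKM + 1) scale, so that a negative value is lower in Gilteritinib, with the standard error (SE) of the fit and n = 3 libraries a condition. This scale understates the difference of genes at low FPKM. The test was limma on all 12 libraries with the replicate number as a block, so the SEs and p-values also rest on DMSO and Com. Of 18574 genes tested, 5 passed an adjusted p under 0.05 (0.0269%), all 5 lower in Gilteritinib, and another 88 had an adjusted p from 0.05 to under 0.06. At an unadjusted p under 0.05, 1013 genes were higher in Gilteritinib (5.45%) and 2325 were lower (12.5%). The difference had the same sign at all 3 replicate numbers for 2465 genes on the higher side (13.3%) and 5350 on the lower side (28.8%). When only the 10506 protein-coding genes were fitted and adjusted, 226 were higher (2.15%) and 444 were lower (4.23%) at an adjusted p under 0.05.

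These totals moved with scaling and with the library numbered 1. Of the genes at an unadjusted p under 0.05, 30.3% were higher in Gilteritinib as deposited, 63.9% after median-ratio scaling and 56.0% after quantile normalization, as the median of all genes went from -0.06 to 0.02 under both. Without the libraries numbered 1, 857 genes passed an adjusted p under 0.05, of which 297 were higher and 560 lower. Without the replicate block 0 genes passed, and 549 were higher and 1219 lower at an unadjusted p under 0.05. With only the 6 libraries compared in the fit, 0 genes passed an adjusted p under 0.05.

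The 5 genes that passed were GGT5, PIM2, FOS, ARID3B and SLC2A5. GGT5 encodes a gamma-glutamyltransferase that converts leukotriene C4 to D4. Its level was 0.662, 1.61 and 1.56 FPKM in Gilteritinib replicates 1 to 3 and 3.71, 4.94 and 4.52 FPKM in Mito-Lipo. Every Gilteritinib library was below every Mito-Lipo library. The level of GGT5 was lower in Gilteritinib by 1.27 ± 0.11 on the log2 scale (adjusted p = 0.0182, limma). The values rest on 166 to 1095 fragments a library. GGT5 (ENSG00000099998) lies at chr22:24219654-24245142 on the minus strand of GRCh38.

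ARID3B, a DNA-binding protein of the ARID family, stood at 5.34, 8.90 and 7.87 FPKM in Gilteritinib and at 11.3, 16.02 and 13.7 FPKM in Mito-Lipo. The groups did not overlap, and ARID3B was lower in Gilteritinib by 0.82 ± 0.08 (adjusted p = 0.0191, limma). It lies at chr15:74541177-74598131 on the plus strand.

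PIM2, a serine/threonine kinase that STAT5 induces downstream of FLT3, had 12.96, 25.4 and 25.9 FPKM in Gilteritinib against 20.6, 37.2 and 37.5 FPKM in Mito-Lipo. The ranges overlapped because both libraries numbered 1 were low, and within each number Gilteritinib was the lower. PIM2 was lower in Gilteritinib by 0.56 ± 0.06 (adjusted p = 0.0191, limma). The gene is at chrX:48913182-48919024, minus strand.

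FOS, the AP-1 subunit that growth signals switch on within minutes, was at 21.2, 32.0 and 33.4 FPKM in Gilteritinib and 32.0, 45.4 and 48.1 FPKM in Mito-Lipo. It was lower in Gilteritinib by 0.52 ± 0.05 (adjusted p = 0.0191, limma), with ranges that overlapped across numbers but not within one. FOS is at chr14:75278774-75282230 on the plus strand. SLC2A5, the fructose transporter GLUT5 at chr1:9035107-9088478 on the minus strand, had 15.3, 35.1 and 35.0 FPKM in Gilteritinib and 22.5, 49.3 and 52.8 FPKM in Mito-Lipo. It was lower in Gilteritinib by 0.53 ± 0.06 (adjusted p = 0.0283, limma).

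In the DMSO libraries FOS was at 20.8, 32.2 and 33.3 FPKM and PIM2 at 14.9, 26.2 and 25.1 FPKM, nearer to Gilteritinib than to Mito-Lipo at each number. For GGT5 the DMSO values of 1.10, 2.38 and 2.53 FPKM lay between those of the 2 drugs. Without the block the adjusted p of the 5 genes was 0.236 (GGT5, ARID3B), 0.663 (PIM2), 0.513 (FOS) and 0.769 (SLC2A5). When the libraries numbered 1 were left out all 5 passed, among 857 of all genes. When those numbered 2 or 3 were left out none of the 5 did, and 0 of all genes passed. The 5 were chosen in a fit that held the same libraries.

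**Figure D1:**
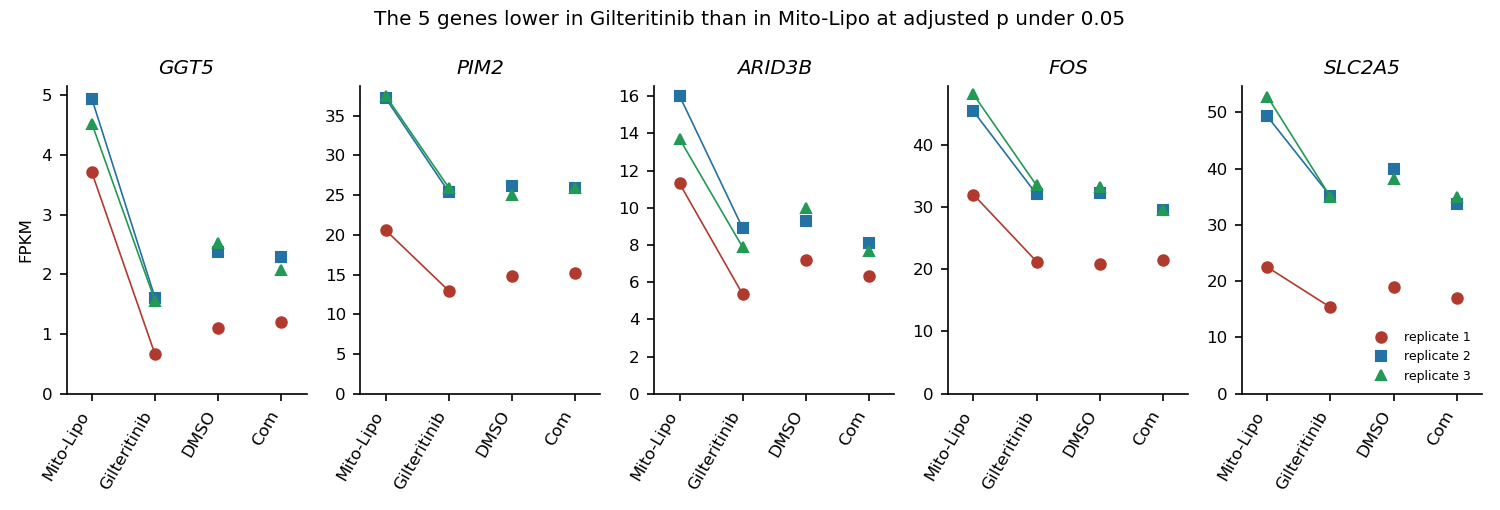
FPKM (vertical axis, from 0) of the 5 genes at an adjusted p under 0.05 in each of the 12 libraries, by condition; points are libraries, marked by replicate number, and lines join the Mito-Lipo and Gilteritinib libraries of the same number. All 15 lines go down from Mito-Lipo to Gilteritinib, and in PIM2, FOS and SLC2A5 replicate 1 is low in every condition.

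Genes were next ranked by difference among protein-coding genes with a mean of at least 5 FPKM in the higher condition, 1 sign at all 3 numbers and an unadjusted p under 0.05. GGT5, whose difference is larger than those of 4 of the 12 genes so named on the lower side, was under that level. These 12 held stress, p53 and myeloid genes, and none passed an adjusted p under 0.05 in the fit of all genes. BTG2, an antiproliferative p53 target, was at 9.81, 11.7 and 12.9 FPKM in Gilteritinib and 25.2, 42.9 and 43.2 FPKM in Mito-Lipo. The groups were apart, with a difference of -1.58 ± 0.22 (adjusted p = 0.0532, limma). CD52, a glycoprotein of the leukocyte surface and the target of alemtuzumab, had the largest difference of the 12, -1.84 ± 0.39 (adjusted p = 0.0743, limma). It stood at 0.583, 2.34 and 2.18 FPKM in Gilteritinib and 1.20, 15.8 and 20.0 FPKM in Mito-Lipo, so nearly all of the difference came from the libraries numbered 2 and 3.

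EGR3, a transcription factor of the EGR family, went the same way: 0.0804, 2.47 and 2.61 FPKM in Gilteritinib against 0.258, 18.4 and 16.6 FPKM in Mito-Lipo. Its difference was -1.66 ± 0.42 (adjusted p = 0.101, limma), and the libraries numbered 1 had almost none of this transcript. DDIT4, an mTORC1 inhibitor induced by stress, was at 2.13, 5.09 and 5.27 FPKM in Gilteritinib and 5.41, 21.7 and 21.9 FPKM in Mito-Lipo, with no overlap and a difference of -1.60 ± 0.33 (adjusted p = 0.0686, limma). CHI3L1, a chitinase-like glycoprotein secreted by macrophages, had 150, 64.1 and 64.0 FPKM in Gilteritinib and 229, 180 and 175 FPKM in Mito-Lipo, a difference of -1.17 ± 0.15 (adjusted p = 0.0532, limma).

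IL4I1, a secreted amino acid oxidase, differed by -1.53 ± 0.23 with no overlap, its FPKM being 3.05 ± 0.460 in Gilteritinib and 11.5 ± 5.07 in Mito-Lipo (SD, n = 3). The other 6 were CDKN1A, described below, and ALDOC (aldolase C), ITGAX (the integrin CD11c), RGS16 (a regulator of G-protein signaling), ATF3 (a stress-induced transcription factor) and OCSTAMP, which takes part in osteoclast fusion. The last 5 differed by -1.20 to -1.53 with SEs of 0.22 to 0.34, and in each the groups overlapped because Mito-Lipo replicate 1 was low. Without the libraries numbered 1 all 12 passed an adjusted p under 0.05, at 0.000782 to 0.00502 (limma), beside 560 of all 18574 genes on the lower side. The 12 were chosen for large differences in a fit that held the same libraries, so their passing is not separate support.

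On the higher side, 11 of the 12 protein-coding genes ranked by the same rule were replication-dependent histone genes. Genes of other or no annotated type, which the rule left out, had differences of up to 2.01. The twelfth was MT1M, a metal-binding metallothionein, at 9.91, 13.8 and 14.9 FPKM in Gilteritinib and 7.54, 6.02 and 6.79 FPKM in Mito-Lipo. The groups did not overlap, and the difference was 0.82 ± 0.18 (adjusted p = 0.0797, limma).

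**Figure D2:**
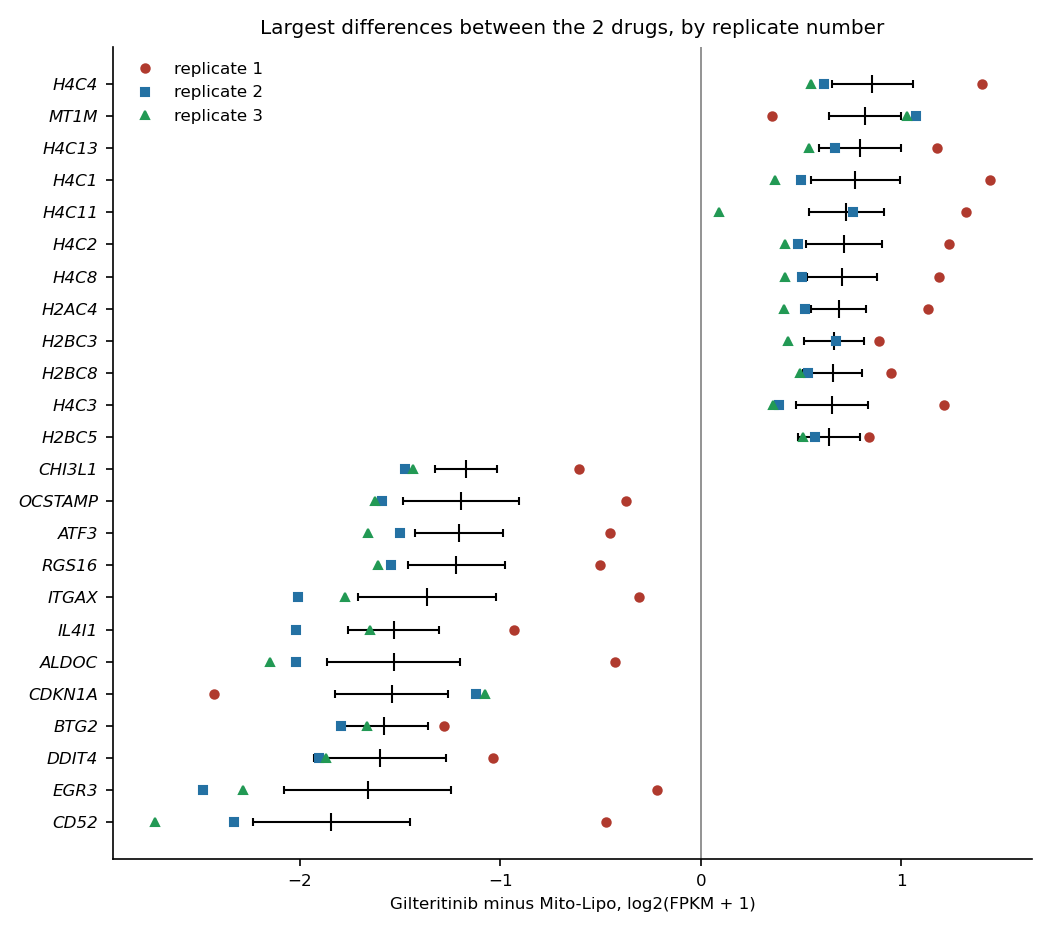
Difference of Gilteritinib minus Mito-Lipo in log2(FPKM + 1) (horizontal axis) for the 12 protein-coding genes with the largest difference on each side; coloured points are the 3 replicate numbers and black bars the fitted difference with 1 SE either side. For CD52 and EGR3 the point of replicate 1 (-0.47 and -0.22) lies far from the other 2, while for CDKN1A and the histone genes replicate 1 gives the largest difference.

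The transcripts of the drug targets were examined next. FLT3, the kinase that gilteritinib inhibits, was at 155, 160 and 153 FPKM in Gilteritinib and 132, 171 and 170 FPKM in Mito-Lipo. These ranges overlapped, and the difference of -0.0041 ± 0.09 did not pass (adjusted p = 0.987, limma). AXL was not tested, since it did not reach 1 FPKM in 3 libraries; it lay between 0.156 and 0.585 FPKM in Gilteritinib and between 0.599 and 1.12 FPKM in Mito-Lipo.

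TOP2A, the topoisomerase II of dividing cells, stood at 189, 144 and 145 FPKM in Gilteritinib and 109, 119 and 125 FPKM in Mito-Lipo. Every Gilteritinib library was above every Mito-Lipo library, with a difference of 0.43 ± 0.11 (adjusted p = 0.101, limma). TOP2B, the form that resting cells also carry, had 121, 92.5 and 95.7 FPKM against 94.5, 95.2 and 101 FPKM, which overlapped (difference 0.08 ± 0.08, adjusted p = 0.621, limma).

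CDKN1A, a p53 target, was at 20.2, 20.3 and 20.8 FPKM in Gilteritinib and 113, 45.4 and 45.1 FPKM in Mito-Lipo. Its groups were apart at every number, with a difference of -1.54 ± 0.28 (adjusted p = 0.066, limma), or -1.10 without the libraries numbered 1.

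CDK2, a kinase that p21 inhibits, was at 19.3, 22.3 and 21.9 FPKM in Gilteritinib and 15.6, 18.7 and 18.9 FPKM in Mito-Lipo, apart by a narrow margin (0.25 ± 0.06, adjusted p = 0.0895, limma). CCNA2, the cyclin A of S and G2 phase, had 82.8, 62.9 and 66.4 FPKM against 53.1, 52.1 and 55.7 FPKM. Its groups did not overlap and differed by 0.38 ± 0.11 (adjusted p = 0.132, limma). CCNA1, the germline and leukemic cyclin A, was higher in Gilteritinib at number 1 and lower at numbers 2 and 3 (0.30, -0.30 and -0.46). AKT1 and AKT2, kinases downstream of PI3K, differed by -0.07 ± 0.07 and -0.06 ± 0.06 with overlapping groups (adjusted p = 0.612 and 0.599, limma).

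Gene lists are described by counts and medians beside those of all genes tested, whose median difference was -0.06. Some lists share members, so they are not independent. For example, BTG2 is in p53 targets and immediate early, and EGR1 is in ERK feedback and immediate early. The counts of all genes moved with the setting. After median-ratio scaling 1288 of 18574 were lower and 2280 higher at an unadjusted p under 0.05. They were 2146 and 1744 without the libraries numbered 1, 1404 and 489 without those numbered 2, and 1546 and 560 without those numbered 3. Genes that make chromatin and copy DNA stood higher in Gilteritinib as groups. Replication-dependent histone genes supply the histones of S phase and end in a stem-loop in place of a poly(A) tail. The labels give amplification of reverse-transcribed mRNA, whether it was primed on poly(A) is not given in the sources used here, and its part in the histone values was not tested. Of 53 in the list 51 were tested; all 51 had a positive difference and 46 were higher at an unadjusted p under 0.05, beside 5.45% of all genes. The 51 differences ran from 0.24 to 0.86 with a median of 0.56, and 0 passed an adjusted p under 0.05 in the fit of all genes. Among the protein-coding genes alone 38 of 49 histone genes did, beside 2.15%. In bulk RNA, fewer cells in a phase of the cycle and less RNA per cell cannot be told apart.

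H4C4, a histone H4 gene, had the largest difference of these, 0.86 ± 0.20 (adjusted p = 0.0907, limma). Its level was 1450, 1054 and 1195 FPKM in Gilteritinib, 547, 689 and 815 FPKM in Mito-Lipo and 980, 957 and 859 FPKM in DMSO. The drug groups did not overlap, and DMSO lay between them at every number. H1-5, a linker histone, was at 1341, 1032 and 1074 FPKM in Gilteritinib and 713, 711 and 789 FPKM in Mito-Lipo, a difference of 0.63 ± 0.11 (adjusted p = 0.0554, limma). H2BC10 differed as much, 0.63 ± 0.10, from 395 ± 36.8 FPKM in Gilteritinib and 255 ± 15.6 FPKM in Mito-Lipo (SD, n = 3). Histone genes of a class are nearly identical copies, and how the authors' counting shared reads between them is not given in the sources used here, so the values of single copies are uncertain.

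Mitosis genes, most of which are transcribed late in the cycle, had positive differences in 43 of 43, with a median of 0.36. The unadjusted p was under 0.05 in 40, beside 5.45% of all genes higher at that level. AURKA, the kinase of the spindle poles, was at 48.7, 40.9 and 40.6 FPKM in Gilteritinib and 35.7, 34.2 and 34.0 FPKM in Mito-Lipo. AURKB, its relative at the centromere, had 41.2, 47.8 and 44.9 FPKM against 30.4, 39.1 and 34.6 FPKM. Both sets of libraries were apart, by 0.31 ± 0.06 and 0.36 ± 0.07 (adjusted p = 0.0683 for both, limma). ECT2, which drives cytokinesis, differed by 0.37 ± 0.07 without overlap. The mitotic kinase CDK1 differed by 0.92, 0.25 and 0.05 at the 3 numbers, so its difference lay mostly at number 1.

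DNA replication genes differed by a smaller and more even amount. All 47 tested were higher in Gilteritinib, with a median of 0.27 and a smallest difference of 0.09. Among them 41 had an unadjusted p under 0.05, beside 5.45% of all genes higher. MCM7, a subunit of the replicative helicase, had 152, 172 and 174 FPKM against 123, 133 and 137 FPKM (0.34 ± 0.05, adjusted p = 0.0554, limma). TK1, the salvage thymidine kinase, differed by 0.39 ± 0.06 at 57.5 ± 4.01 and 43.8 ± 4.62 FPKM (SD, n = 3). In both genes the groups did not overlap and the differences at the 3 numbers lay between 0.29 and 0.45.

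Genes of topoisomerases and break repair were higher in Gilteritinib in part. Of 42 tested, 19 were higher in Gilteritinib and 0 lower at an unadjusted p under 0.05, beside 5.45% of all genes higher. The median was 0.16. Without the libraries numbered 2 or 3, 11 or 10 were higher, beside 489 or 560 of all 18574 genes. BRCA1, which acts in homologous recombination, was at 29.8, 29.6 and 29.2 FPKM in Gilteritinib and 22.1, 24.3 and 23.6 FPKM in Mito-Lipo, apart by 0.33 ± 0.06 (adjusted p = 0.0668, limma). XRCC5, the Ku80 end-binding protein, differed by 0.21 ± 0.05 and the exonuclease EXO1 by 0.29 ± 0.06. The break-signaling kinases ATM and CHEK2 had differences of 0.01 and 0.06.

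Promoters of 3 members that stood on opposite sides are shown because their windows hold letter patterns known from the growth factor and cell cycle response. The 250 bases before the start of each gene were taken from RefSeq (GRCh38.p14), and 63 of the 84 genes that the naming rule selects were matched to a promoter. Capitals in EGR1 mark CArG boxes, the element that serum response factor binds, and its other matches are left in lower case. In TOP2A and H2BC8 capitals mark CCAAT, read as ATTGG on the other strand, and TTTGAA, read as TTCAAA, which is the letters of the cell cycle homology region (CHR). The windows are chr5:138465229-138465478 on the plus strand for EGR1, chr17:40417897-40418146 on the minus strand for TOP2A and chr6:26216689-26216938 on the minus strand for H2BC8.
EGR1: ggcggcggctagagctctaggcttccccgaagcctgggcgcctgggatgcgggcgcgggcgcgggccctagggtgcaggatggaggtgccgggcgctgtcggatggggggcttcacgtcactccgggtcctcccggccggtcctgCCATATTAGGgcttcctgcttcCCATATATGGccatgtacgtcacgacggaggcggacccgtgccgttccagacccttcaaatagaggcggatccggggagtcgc
TOP2A: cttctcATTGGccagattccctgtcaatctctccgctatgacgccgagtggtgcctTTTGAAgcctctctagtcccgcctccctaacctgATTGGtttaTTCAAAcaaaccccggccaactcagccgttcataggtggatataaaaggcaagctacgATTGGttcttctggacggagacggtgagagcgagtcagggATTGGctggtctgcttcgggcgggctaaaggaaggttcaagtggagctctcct
H2BC8: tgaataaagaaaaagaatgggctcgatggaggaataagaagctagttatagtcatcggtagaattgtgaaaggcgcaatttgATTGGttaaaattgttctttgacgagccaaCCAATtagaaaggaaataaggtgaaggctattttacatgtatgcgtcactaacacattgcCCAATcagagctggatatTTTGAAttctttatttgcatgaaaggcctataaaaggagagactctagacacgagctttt

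EGR1 held CArG boxes at -105 to -96 and -83 to -74 from its start. It also held 1 CHR match, at -29 to -24, and 1 match of the STAT letters TTCNNNGAA, at -228 to -220, so CHR letters were in all 3 windows. TOP2A held 4 CCAAT and 2 CHR matches, and H2BC8 held 3 and 1. Both strands of 27305 promoters were searched for each pattern. CArG boxes were present in 1.14% of all promoters and in 2 of 22 of the immediate early list, 1 of 11 of MHC class II, 2 of 26 of interferon response and 2 of 48 of the histone list. CCAAT was present in 33.0% of all promoters, in 77.1% of the mitosis list, 85.4% of the histone list and 55.0% of the DNA replication list. Lists with negative medians held it too, with 90.9% of MHC class II, 69.2% of cholesterol and fatty acid synthesis, 53.3% of the BCL2 family, 51.9% of ATF4 response and 46.9% of p53 targets. CHR letters were present in 13.6% of all promoters, 54.3% of the mitosis list, 31.3% of the histone list and 2.50% of the DNA replication list. They were also in 4 of 11 promoters of MHC class II (36.4%) and 4 of 14 of STAT5 targets (28.6%). The medians of those lists were negative, that of MHC class II over only 4 tested genes. With no filter the median of 11 MHC class II genes was -0.037. CCAAT and CHR matches overlapped in 28 promoters. Each of the 3 patterns thus occurred in lists on both sides. These are matches of letters in a window, and no binding was measured.

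Genes that p53 switches on were lower in Gilteritinib as a group, or in other words higher in Mito-Lipo. Of 36 tested, 34 had a negative difference, 14 were lower at an unadjusted p under 0.05 beside 12.5% of all genes, and the median was -0.29. BTG2 and CDKN1A, given above, stood apart from the rest, the next being SAT1, a polyamine acetylase, at -0.61 ± 0.11 (adjusted p = 0.062, limma). SAT1 was at 11.9, 9.03 and 8.73 FPKM in Gilteritinib and 19.4, 14.8 and 12.8 FPKM in Mito-Lipo, without overlap. MDM2, the ligase that degrades p53, differed by -1.24, -0.21 and -0.22 at the 3 numbers. FDXR, a mitochondrial reductase, differed by -1.42, -0.29 and 0.11. The median of the list was -0.74 at number 1, -0.07 at number 2 and -0.11 at number 3. Most of the median difference thus lay at number 1, and -0.08 was left in the fit without the libraries numbered 1. In that fit 13 of 36 were lower and 4 higher at an unadjusted p under 0.05, beside 2146 and 1744 of all 18574 genes. Of the 36, 5 were lower at an adjusted p under 0.05 (limma), beside 560 of all genes.

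BCL2 family genes, which set the threshold for apoptosis, had 9 of 16 lower and 1 higher in Gilteritinib at an unadjusted p under 0.05 (median -0.26), beside 12.5% of all genes lower. After median-ratio scaling 3 were lower and 1 higher, and 3 were lower without the libraries numbered 2 or 3. BCL2L11 (BIM), which promotes apoptosis and is held down by ERK, was at 10.03, 16.4 and 16.4 FPKM in Gilteritinib and 18.1, 23.2 and 24.1 FPKM in Mito-Lipo. The groups did not overlap, with a difference of -0.60 ± 0.09 (adjusted p = 0.0554, limma). BNIP3, a mitophagy receptor, also stood apart, at 6.62, 7.16 and 6.79 FPKM against 7.67, 13.5 and 13.5 FPKM. The survival gene MCL1 overlapped between groups (-0.28 ± 0.07, adjusted p = 0.115, limma), and BCL2, target of venetoclax, differed by -0.05. The members lower in Gilteritinib thus included genes that promote apoptosis and genes that block it.

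The outputs of FLT3 signaling were read on lists for STAT5, ERK and PI3K. Lower here means lower than in Mito-Lipo, and the STAT5 and ERK lists are set beside DMSO further on. Of 17 STAT5 targets 9 were lower in Gilteritinib and 0 higher at an unadjusted p under 0.05, beside 12.5% of all genes lower. Their median was -0.27. Besides PIM2, which passed the test, CCND2 (cyclin D2) had 5.30, 11.98 and 12.1 FPKM in Gilteritinib and 10.3, 15.7 and 17.2 FPKM in Mito-Lipo, lower at each number (-0.56 ± 0.11, adjusted p = 0.0683, limma). SOCS3, a feedback inhibitor of JAK signaling, was at 2.86, 5.32 and 5.45 FPKM against 4.21, 7.64 and 8.13 FPKM (-0.46 ± 0.09, adjusted p = 0.0683, limma). PIM1 differed by -1.71 at number 1 and by -0.58 and -0.60 at the others.

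Of 15 ERK feedback genes 8 were lower and 0 higher at an unadjusted p under 0.05, beside 12.5% of all genes lower. Their median was -0.33. DUSP7 and DUSP2, phosphatases that act on MAP kinases, differed by -0.31 ± 0.05 and -0.33 ± 0.06 (adjusted p = 0.0595 and 0.0683, limma). DUSP6, often read as the measure of ERK activity, differed by 0.05, and MYC by 0.08, with an adjusted p of 0.822 and 0.669 (limma). Of the 15 members 12 had a negative difference and 3 a positive one, and 0 of the positive ones had an unadjusted p under 0.05.

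Immediate early genes, mostly AP-1 and EGR transcription factors, were below 0 in 22 of 22, with a median of -0.46. Among them 17 were lower at an unadjusted p under 0.05, beside 12.5% of all genes. Beyond FOS, EGR1 had 4.29, 26.0 and 26.3 FPKM in Gilteritinib and 11.2, 54.2 and 51.5 FPKM in Mito-Lipo, beside 10.4, 30.6 and 33.0 FPKM in DMSO. Gilteritinib was the lowest of these at each number, and its difference from Mito-Lipo was -1.06 ± 0.15 (adjusted p = 0.0554, limma). JUN, the AP-1 partner of FOS, differed by -0.69 ± 0.13 at 1.15 and 2.51 FPKM on average. PI3K and AKT pathway genes had a median of -0.04, or 0.04 after median-ratio scaling. Their count at an unadjusted p under 0.05 was 1 of 29 higher and 2 lower, beside 5.45% and 12.5% of all genes.

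Inflammatory genes had the largest median of the lists on the lower side in the reported fit, a rank that moved with the setting. With no filter their median was -0.25 over 26 genes, beside -0.42 for cholesterol and fatty acid genes. Without the libraries numbered 3 it was -0.40, beside -0.48 for immediate early genes. Of 14 NF-kB and cytokine genes tested, 14 had a negative difference, with a median of -0.53. In 12 the unadjusted p was under 0.05, beside 12.5% of all genes lower at that level. ICAM1, an adhesion molecule, was at 2.42, 6.27 and 6.64 FPKM in Gilteritinib and 4.35, 15.9 and 15.9 FPKM in Mito-Lipo (-1.001 ± 0.19, adjusted p = 0.0668, limma). NFKB2, a subunit of NF-kB, stood apart at 3.45, 2.63 and 2.49 against 4.74, 5.10 and 4.06 FPKM (-0.55 ± 0.11, adjusted p = 0.0683, limma). The chemokine CCL2 and the cytokine IL1B differed by -0.21 and -0.13 at number 1. At numbers 2 and 3 the differences were -1.57 and -1.63 for CCL2 and -1.28 and -1.35 for IL1B.

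Genes of myeloid maturation had members on both sides. Of 23 tested, 11 were lower in Gilteritinib and 1 higher at an unadjusted p under 0.05, beside 12.5% and 5.45% of all genes. The median was -0.28. CSF1R, the receptor for macrophage colony-stimulating factor, was at 13.5, 22.8 and 22.6 FPKM in Gilteritinib, 18.3, 40.6 and 41.1 FPKM in Mito-Lipo and 11.4, 22.4 and 20.9 FPKM in DMSO. ITGAM (CD11b) had 0.530, 1.87 and 1.75 FPKM in Gilteritinib and 1.28, 4.82 and 4.59 FPKM in Mito-Lipo. Both were lower in Gilteritinib at every number, with differences of -0.69 ± 0.12 and -0.87 ± 0.15 (adjusted p = 0.0554 for both, limma). The granule protease CTSG, of less mature cells, differed by 0.34 ± 0.07. FCER1G, the shared chain of Fc receptors, differed by -0.54 ± 0.10 without overlap.

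Among 15 interferon response genes 5 were lower and 0 higher at an unadjusted p under 0.05 (median -0.21), beside 12.5% of all genes lower. The count was 11 without the libraries numbered 1 and 3 without those numbered 3. IFITM1, an antiviral membrane protein, differed by -0.60, -0.55 and -0.68 at the 3 numbers (-0.61 ± 0.08, adjusted p = 0.0532, limma). GBP2 and IFITM3 differed by -0.55 ± 0.14 and -0.40 ± 0.10. Of 4 MHC class II genes tested 2 were lower at an unadjusted p under 0.05, beside 12.5% of all genes. These were CIITA, the transactivator of the class, at -0.46 ± 0.11, and CD74, its invariant chain, at -0.32 ± 0.08. Some members of these lists (CD163, HLA-DPB1, HLA-DOA, LTA, CCL3 and CCL4) were not analysed here.

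Cholesterol and fatty acid synthesis genes, which SREBP transcription factors control, had a median of -0.42. They had 25 of 33 lower and 1 higher at an unadjusted p under 0.05, beside 12.5% and 5.45% of all genes. DHCR7, the last enzyme of cholesterol synthesis in one branch, was at 6.48, 17.03 and 17.5 FPKM in Gilteritinib and 9.33, 34.3 and 36.4 FPKM in Mito-Lipo (-0.82 ± 0.15, adjusted p = 0.066, limma). TM7SF2, a sterol reductase, stood apart at 5.01, 4.81 and 4.14 against 8.24, 8.11 and 9.26 FPKM (-0.76 ± 0.10, adjusted p = 0.0532, limma). HMGCS1, an early enzyme of cholesterol synthesis, differed by 0.05, -1.38 and -1.45. It was thus close to level at number 1 and lower in Gilteritinib at numbers 2 and 3. SREBF2, a regulator of these genes, differed evenly, by -0.24 ± 0.04 (adjusted p = 0.0554, limma).

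Of 29 genes of glucose use 13 were lower and 0 higher at an unadjusted p under 0.05, beside 12.5% of all genes lower. The median was -0.15, and 23 had a negative difference. After median-ratio scaling 8 were lower and 2 higher (median -0.05). SLC2A5 passed the test, and PGD, of the pentose phosphate pathway, was at 88.8, 89.5 and 93.3 FPKM in Gilteritinib and 127, 115 and 123 FPKM in Mito-Lipo, with no overlap and a difference of -0.42 ± 0.06 (adjusted p = 0.0532, limma). ALDOC stood at 2.80, 6.85 and 6.78 FPKM against 4.10, 30.8 and 33.5 FPKM. The core enzymes GAPDH, PGK1 and TPI1 had differences of -0.08, -0.03 and 0.05.

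Of 27 ATF4 response genes tested 11 were lower and 0 higher at an unadjusted p under 0.05, beside 12.5% of all genes lower, while the median was -0.07. After median-ratio scaling 5 were lower and 2 higher, with a median of 0.03. ATF5, a stress-induced transcription factor, had 11.0, 22.7 and 24.9 FPKM in Gilteritinib and 16.6, 61.9 and 66.7 FPKM in Mito-Lipo (-1.12 ± 0.18, adjusted p = 0.0554, limma). The ATF4 mRNA (-0.07) and that of asparagine synthetase, ASNS (-0.12), differed by far less. WARS1, a tRNA synthetase, differed by -0.34 ± 0.05.

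Lysosome genes had 10 of 29 lower at an unadjusted p under 0.05 (median -0.16), beside 12.5% of all genes. After median-ratio scaling 5 were lower and 2 higher (median -0.06), and 4 were lower without the libraries numbered 2 or 3. Among the members were the cathepsins CTSB and CTSH at -0.42 ± 0.10 and -0.37 ± 0.08 and the cholesterol exporter NPC1 at -0.33 ± 0.07. Ribosome biogenesis genes had 0 of 33 in either direction and a median of 0.08. That count depended on the setting. After median-ratio scaling 10 were higher (median 0.18), beside 2280 of all 18574 genes. Without the libraries numbered 1, 24 were higher (median 0.16), beside 1744 of all genes. Of those 24, 6 had an adjusted p under 0.05 (limma). The 13 mitochondrially encoded genes had 0 in either direction; their median was -0.20, made of -1.19 at number 1, where Gilteritinib had its low mitochondrial share, and 0.23 and 0.38 at numbers 2 and 3. HBB, the only one of the other cell type markers below an unadjusted p of 0.05, was listed at 0, 1.26 and 1.02 FPKM in Gilteritinib and 1.05, 1.71 and 2.85 FPKM in Mito-Lipo. Its part in the results was not tested, and the 3 markers of this list that were tested had a median of -0.37. The alpha globin genes HBA1 and HBA2 were below 1 FPKM in all 12 libraries. Of the 17 markers of the line tested, 3 were lower and 0 higher at an unadjusted p under 0.05, namely ITGAX, CSF1R and the homeobox gene MEIS1 (-0.19 ± 0.06), with a median of -0.09, or 0.0040 after median-ratio scaling. That is 3 of 17 beside 12.5% of all genes lower, too near to it to be a result about these markers.

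**Figure D3:**
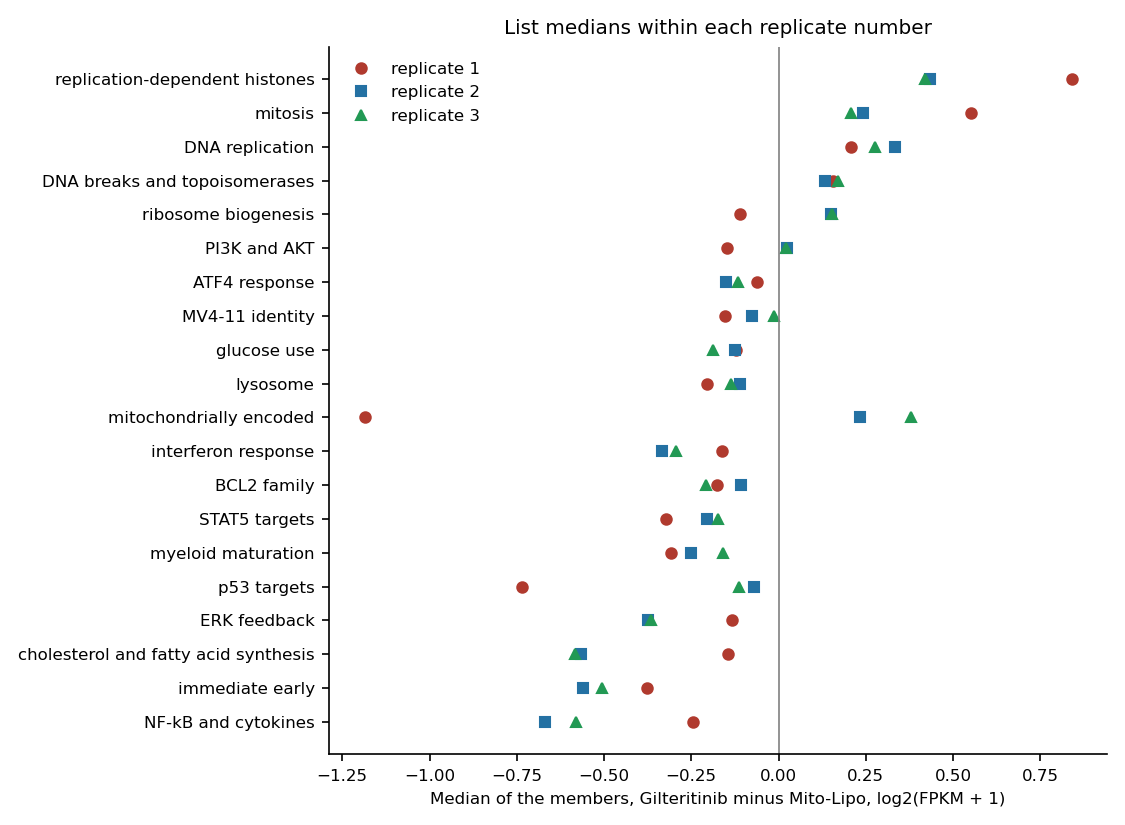
Median of the tested members of each list, Gilteritinib minus Mito-Lipo in log2(FPKM + 1) (horizontal axis), within each replicate number, for the 20 lists with at least 10 members tested. Replicate 1 had the larger difference for p53 targets (-0.74) and histones (0.84) and the smaller one for cholesterol genes (-0.14) and NF-kB genes (-0.24).

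The sizes of the list medians depended on the replicate number. At numbers 2 and 3 the histone medians were 0.43 and 0.42 against 0.84 at number 1, and the mitosis medians 0.24 and 0.21 against 0.55. Cholesterol and fatty acid genes ran the opposite way, at -0.57 and -0.58 against -0.14, as did NF-kB and cytokine genes at -0.67 and -0.58 against -0.24. DNA replication was the most even of these, at 0.21, 0.33 and 0.28. What a replicate number stands for is not given in the sources used here, and whether number 1 was another culture, day or library batch cannot be told apart from its difference in response.

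The counts at an unadjusted p under 0.05 moved with the setting too. Those of all 18574 genes also fell, from 2325 lower and 1013 higher. They were 1404 and 489 without the libraries numbered 2, and 1546 and 560 without those numbered 3. Without the libraries numbered 2 or 3, cholesterol and fatty acid genes had 11 or 9 of 33 lower in Gilteritinib and NF-kB and cytokine genes had 5 of 14 either way. Immediate early genes had 11 or 12 of 22 lower, and glucose use had 7 or 5 of 29. DNA replication genes had 24 or 25 of 47 higher, while histone genes had 47 or 42 of 51. Without the replicate block 22 DNA replication genes were higher, and 14 cholesterol, 7 immediate early, 6 p53 target, 3 ERK feedback and 2 STAT5 target genes were lower. Of all genes 549 were higher and 1219 lower without the block.

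Each drug was set beside DMSO to show on which side a difference lay. Both comparisons share the 3 DMSO libraries, so they are not independent. In each, 0 genes passed an adjusted p under 0.05 (limma). At an unadjusted p under 0.05, 234 genes were higher (1.26%) and 687 lower (3.70%) in Gilteritinib than in DMSO, and 1755 were higher (9.45%) and 1199 lower (6.46%) in Mito-Lipo than in DMSO.

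For most lists the value of Mito-Lipo was the one farther from DMSO. Cholesterol and fatty acid genes had a median of 0.37 in Mito-Lipo minus DMSO, with 26 of 33 higher, and -0.03 in Gilteritinib minus DMSO, with 0 of 33 in either direction. NF-kB and cytokine genes had 0.44 and -0.02, and p53 targets 0.27 and 0.02. STAT5 targets had 0.15 in Mito-Lipo, with 7 of 17 higher, and -0.06 in Gilteritinib, with 0 in either direction. ERK feedback genes had 0.25 in Mito-Lipo, with 7 of 15 higher and 0 lower, and -0.05 in Gilteritinib, with 0 higher and 1 lower. DNA replication genes had -0.24 with 37 of 47 lower in Mito-Lipo, and 0.04 with 2 higher in Gilteritinib.

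For histone and immediate early genes the Gilteritinib median lay farther from DMSO than in the lists above, on the side opposite to Mito-Lipo. Histone genes had a median of -0.36 in Mito-Lipo, with 32 of 51 lower, and 0.19 in Gilteritinib, with 7 higher. Immediate early genes had 0.31 in Mito-Lipo, with 13 of 22 higher and 1 lower, and -0.11 in Gilteritinib, with 4 lower. EGR1 as a single gene was at 0.51 in Mito-Lipo minus DMSO and -0.55 in Gilteritinib minus DMSO.

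**Figure D4:**
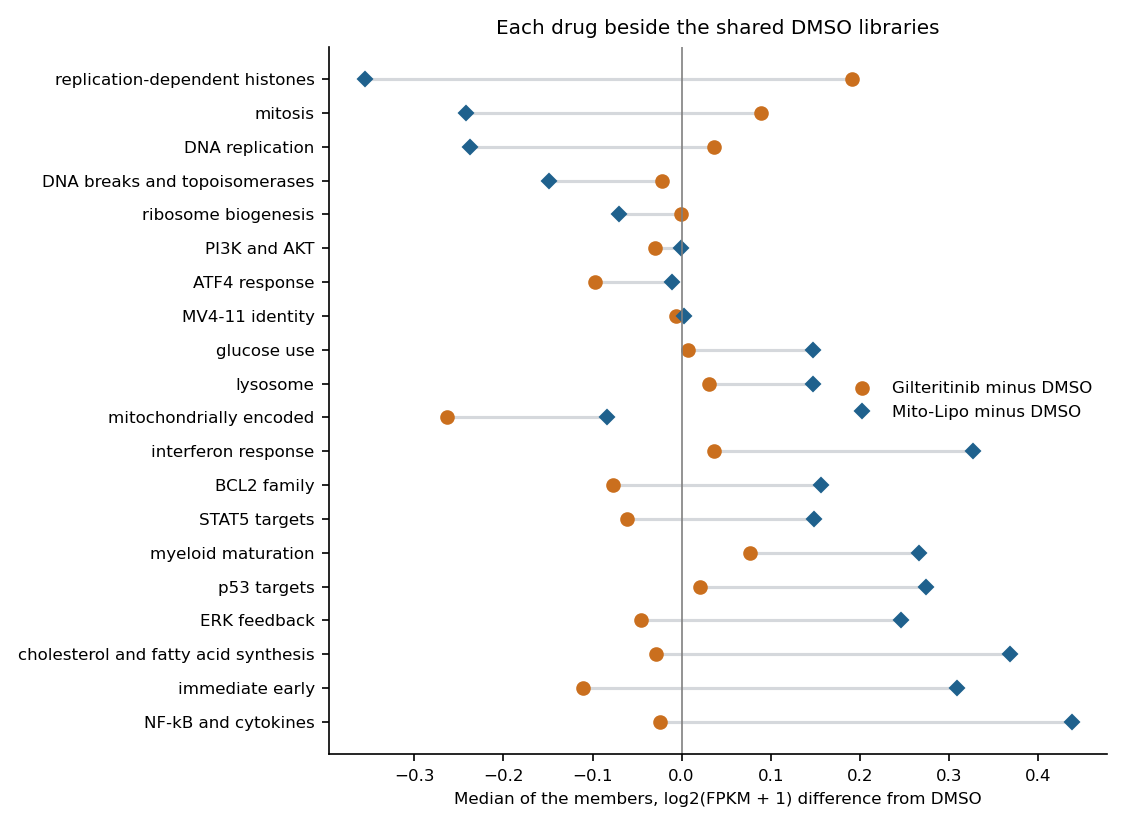
Median of the tested members of the 20 lists with at least 10 members tested, as a difference from DMSO in log2(FPKM + 1) (horizontal axis), for Gilteritinib (circles) and Mito-Lipo (diamonds); both use the same 3 DMSO libraries. The Mito-Lipo medians reach from -0.36 (histones) to 0.44 (NF-kB and cytokines), and the Gilteritinib medians from -0.26 (mitochondrially encoded) to 0.19 (histones).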

How the data were processed

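RNA-sequencing of 12 libraries was deposited by the authors as 1 table of FPKM per gene. The submitters' processing notes name Bowtie 0.12.9, Cufflinks 2.1.1, HTSeq and DESeq2, without their roles; their build is a mouse one (mm10) although the identifiers are human Ensembl genes, so the human build and annotation release are not given in the sources used here. Positions and gene types were taken from GENCODE 29 (GRCh38), in which 40169 of 43876 identifiers were found. The labels give extraction with miRNeasy and amplification by Geo-seq, and the paper gives TRIzol.

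Values were tested as log2(FPKM + 1) where 3 or more of the 12 libraries had 1 FPKM or above, with limma 3.58.1 in R 4.3.3, on all 12 libraries, with 1 mean per condition, the replicate number as a block, a trend of variance on mean level and adjustment by Benjamini-Hochberg. A mean is followed by its SD and a log2 difference by its SE. Same-numbered libraries deviated together from the condition means in all 18 pairs (correlations 0.165 to 0.657). For Gilteritinib with Mito-Lipo the correlations were 0.606, 0.387 and 0.474. Correlations between libraries of different numbers are not given here. The libraries numbered 1 stood apart in every condition, so the rest would tend to deviate together whatever their numbers. These correlations therefore cannot show that the other numbers pair the libraries, and that pairing rests on the labels. No source says that libraries came from separate cultures, so p-values measure the spread between libraries, which may be technical. Depth rests on about 74% to 75% of low values lying within 0.1 of a whole number of fragments; no count test was run.

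The comparison, the 22 gene lists and the tests were chosen with earlier results of these data known. Genes were named by a rule: those past an adjusted p of 0.05; the 12 protein-coding genes with the largest difference on each side with an unadjusted p under 0.05, 1 sign at all numbers and a mean of at least 5 FPKM in the higher condition; up to 3 list members with the smallest p; and the drug targets and genes of the paper. Further list members were picked with their values in view, and some genes that the rule names are not reported here. The fit was tested on simulated data. Alternatives were a pseudocount of 0.1, no filter, a mean of at least 5 FPKM, median-ratio and quantile scaling, no trend, no block, the 6 libraries alone, protein-coding genes alone, and each replicate number and each library left out.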

Additional observations from a re-analysis of the deposited data

How the results depend on the processing

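The number of genes at an adjusted p under 0.05 was 5 as reported. It was 8 with a pseudocount of 0.1, 173 at a mean FPKM of at least 5 and 2 after median-ratio scaling. It was 1 without the mean-variance trend and 0 with the 6 libraries alone. Among protein-coding genes alone it was 670. There the fit and its variance trend were redone on those genes, so the p-values changed as well as the number of genes tested. Without the replicate block it was 0, with 549 higher and 1219 lower at an unadjusted p under 0.05. With a replicate number or a library left out it ranged from 0 to 857; the highest values were 857 without replicate 1 and 423 without Mito-Lipo replicate 1, and it was 0 without Gilteritinib replicate 3, Mito-Lipo replicate 2 or Mito-Lipo replicate 3. The cause was not tested.

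At an unadjusted p under 0.05, the 1013 genes higher in Gilteritinib became 2280 after median-ratio scaling and 1677 after quantile normalization, and 489 to 1744 with a replicate or library left out. The 2325 lower genes became 3947 with no filter, 1120 at a mean FPKM of at least 5, 1288 after median-ratio scaling and 1319 after quantile normalization, and 1328 to 2522 with a replicate or library left out.

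Each named gene was counted once in every alternative that tested it. Of these entries, 12 reversed sign, 1238 kept their direction and side of the threshold, 194 came to pass it and 54 no longer did. Only entries of the 5 genes that passed in the reported fit could be among the 54. The reversals were in genes near 0. FLT3 went from -0.0041 to 0.096 after median-ratio scaling and to between -0.122 and 0.069 with a library or number left out (0.040, 0.069, 0.004, 0.042, 0.047 and 0.048 where it reversed). TOP2B went to -0.057 without replicate 1 and -0.026 without Mito-Lipo replicate 1, in a range up to 0.155, AKT1 to 0.021 and AKT2 to 0.038 after median-ratio scaling, and AKT2 to 0.007 without replicate 1, in a range down to -0.107. Of the list medians under alternatives, 360 moved by less than 1 SD between replicate numbers and 36 by more, and 8 changed sign: those of PI3K and AKT, ATF4, MV4-11 identity and mitochondrially encoded genes. The histone, mitosis, DNA replication, cholesterol, immediate early and p53 lists kept their direction in every alternative.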

Other observations

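The Com libraries received the same 20 nM mitoxantrone-liposome as Mito-Lipo together with 20 nM gilteritinib. Their values are given for genes described in the comparison of the single drugs. EGR3 was at 0.0882, 2.73 and 3.15 FPKM in Com, beside 0.258, 18.4 and 16.6 FPKM in Mito-Lipo and 0.0804, 2.47 and 2.61 FPKM in Gilteritinib. FOS had 21.6, 29.5 and 29.5 FPKM in Com and DHCR7 had 6.39, 14.9 and 16.3 FPKM, each nearer to its Gilteritinib than to its Mito-Lipo values at every replicate number. CDKN1A was at 92.1, 30.1 and 30.7 FPKM in Com, between its Gilteritinib values of 20.2, 20.3 and 20.8 FPKM and its Mito-Lipo values of 113, 45.4 and 45.1 FPKM. H4C4 was at 692, 1111 and 800 FPKM in Com, nearer to Mito-Lipo at numbers 1 and 3 and nearer to Gilteritinib at number 2. These values are a description, and no difference from Com was tested.

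CHI3L1 was higher at number 1 than at numbers 2 and 3 in every condition, at 173, 86.3 and 86.3 FPKM in DMSO, while EGR3 was lower there in every condition, at 0.203, 3.10 and 3.06 FPKM in DMSO.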
